A study of Mus musculus with 10 samples.

Results

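The photoreceptor ribbon synapse genes Ctbp2, Bsn, Pclo, Cacna2d4, Cabp4, Elfn1 and Unc119 were followed in CUT&Tag profiles of 2 histone H3 modifications in mouse retina. All peaks annotated to these 7 gene symbols were taken, which gave 63 of 108253 peaks, 10 of them promoter peaks (from 1000 bp before to 500 bp after a transcription start) and 53 lying elsewhere. Retinas of wild-type C57BL/6J mice at postnatal day 28 were freed of the sclera and pigment epithelium and kept as explants for 48 hours in Neurobasal-A medium with either 5 mM or 25 mM glucose, and both groups received the same B27 and N2 supplements and antibiotics. CUT&Tag places a transposase at an antibody-bound mark, so that the sequenced fragments show where the mark lies, and was run on 500000 dissociated cells per assay for lactylation of H3 lysine 18 (H3K18La, 3 libraries per glucose level) and acetylation of H3 lysine 27 (H3K27Ac, 2 libraries per glucose level). An explant lacks the pigment epithelium and its blood supply, and the labels place all 10 libraries in batch 1. The sample titles and the study's methods name H3K27Ac, whereas the extraction text of the labels names H3K9me3 as the other antibody and a nuclease in place of the transposase.

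Rods and cones release glutamate tonically, and their release sites carry a synaptic ribbon, a plate of protein that tethers vesicles above a cluster of Cav1.4 calcium channels. The ribbon is built from RIBEYE, which is made from an internal start of Ctbp2 and shares its C-terminal part with the transcriptional corepressor CtBP2. Bassoon (Bsn) and Piccolo (Pclo) are giant scaffolds of the active zone, of which Bassoon anchors the ribbon to the membrane. Cacna2d4 encodes the auxiliary alpha2delta-4 subunit of the channel and Cabp4 a calcium-binding protein that tunes its opening. Elfn1 is an adhesion protein that reaches across the cleft to the glutamate receptor of rod bipolar cells, and Unc119 is a lipid-binding trafficking protein of photoreceptors that is also found at the ribbon synapse. H3K27Ac is a known mark of active promoters and enhancers, and H3K18La is a modification derived from lactate.

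The start sites of the 7 genes did not all lie under peaks. Sequences of 250 bases upstream of RefSeq transcript starts were taken from the GRCm38.p6 table and are printed from 5′ to 3′ on the strand of the gene. They show the RIBEYE start of Ctbp2, starts of Unc119 with and without a peak, and the starts of the scaffold genes Pclo and Bsn. Capitals mark matches, on either strand, to TAATCC (the core recognised by CRX and OTX factors), GGGCGG (a GC box) or TGCTGA (part of the site of NRL), none of which overlapped.
Ctbp2, RIBEYE start, chr7:133015248-133015497, minus strand: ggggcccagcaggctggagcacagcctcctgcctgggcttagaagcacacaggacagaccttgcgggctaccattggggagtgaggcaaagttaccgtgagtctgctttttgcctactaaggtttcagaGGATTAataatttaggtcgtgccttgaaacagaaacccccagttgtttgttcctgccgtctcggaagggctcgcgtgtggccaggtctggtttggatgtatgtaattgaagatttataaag
Unc119, an internal start, chr11:78345334-78345583, plus strand: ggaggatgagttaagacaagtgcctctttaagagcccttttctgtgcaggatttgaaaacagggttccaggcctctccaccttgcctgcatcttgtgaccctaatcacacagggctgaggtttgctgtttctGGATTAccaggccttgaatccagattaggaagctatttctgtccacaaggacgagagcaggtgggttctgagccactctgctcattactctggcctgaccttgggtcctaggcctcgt
Unc119, first start, chr11:78343245-78343494, plus strand: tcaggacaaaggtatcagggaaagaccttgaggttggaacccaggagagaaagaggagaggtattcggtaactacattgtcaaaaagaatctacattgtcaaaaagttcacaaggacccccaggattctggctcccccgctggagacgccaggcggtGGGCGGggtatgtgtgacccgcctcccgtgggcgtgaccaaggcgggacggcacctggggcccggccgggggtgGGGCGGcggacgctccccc
Pclo, chr5:14514668-14514917, plus strand: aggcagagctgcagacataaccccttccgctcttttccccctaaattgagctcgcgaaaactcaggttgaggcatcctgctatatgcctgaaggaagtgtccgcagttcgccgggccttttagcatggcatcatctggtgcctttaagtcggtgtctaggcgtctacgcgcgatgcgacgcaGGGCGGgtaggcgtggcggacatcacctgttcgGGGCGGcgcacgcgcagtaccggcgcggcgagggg
Bsn, chr9:108190384-108190633, minus strand: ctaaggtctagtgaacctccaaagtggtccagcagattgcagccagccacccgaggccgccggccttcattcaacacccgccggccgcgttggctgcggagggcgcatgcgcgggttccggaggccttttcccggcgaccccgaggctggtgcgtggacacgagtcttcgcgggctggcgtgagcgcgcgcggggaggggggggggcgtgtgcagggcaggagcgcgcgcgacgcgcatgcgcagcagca
The RIBEYE and internal Unc119 windows each held 1 TAATCC match, which was present in 6.25% of 32851 RefSeq windows of this length. The first Unc119 window and the Pclo window held 2 GC boxes each, against 32.7% of all windows with at least 1, and the Bsn window held none of these letters. Another Unc119 window (chr11:78346460-78346709) held 1 TGCTGA match, present in 16.1% of windows, while the Elfn1 window and another Ctbp2 window (chr7:133081861-133082110), which lay under none of the 63 peaks, held none of the 3 motifs. RefSeq windows for Cabp4 and Cacna2d4 were not used here.

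For Ctbp2, one promoter peak (chr7:133013520-133016086) covered the start of the transcript whose coding region spans 988 codons, which is RIBEYE. Another (chr7:133123614-133125209) covered upstream starts, and lay 246 bp beyond the start of the 445-codon CtBP2 transcript and within 1 kb of a start of the neighbouring gene Fgfr2. For Unc119, the only promoter peak (chr11:78344743-78347067) covered the internal start of a 175-codon transcript. A distance of 1260 bp separated it from the first start, on which no peak of the set lay. Elfn1 had the widest peak of the whole set at its start (chr5:139906592-139912397, 5806 bp). The 10 promoter peaks had a median width of 1856 bp, against 1115 bp over all 17144 promoter peaks, and a median RPKM (reads scaled to peak length and library size) over the 10 libraries of 8.67 against 3.20. Their median GC content was 57.1% against 57.5%, while the ratio of observed to expected CpG was 0.312 against 0.596.

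Depth and signal over the whole series set the scale of every value. The RPKM values were whole multiples of 1 read, and the recovered denominators were 1358008 to 7424470 reads per library. In H3K18La libraries 11.9% ± 0.0965 of reads at 5 mM and 32.6% ± 2.08 at 25 mM lay in peaks (mean ± SD, n = 3), and in H3K27Ac libraries 26.3% ± 7.35 and 63.0% ± 9.19 (n = 2), and RPKM was higher at 25 mM at most peaks. A median member peak held only 2 to 6 reads in an H3K18La library at 5 mM and 6 to 11 at 25 mM, and 11 to 55 reads in an H3K27Ac library, so H3K18La values at single weak peaks were imprecise. The rod markers Nrl, Gnat1, Pde6b, Sag and Nr2e3 each had a promoter peak, and each rose at 25 mM in both marks (limma, adjusted p under 0.05). Promoter peaks were present for 3 of 4 cone, 2 of 4 rod and ON bipolar, 3 of 4 Müller glia, 4 of 4 amacrine, 1 of 4 ganglion cell, 1 of 4 microglia and 2 of 3 pigment epithelium markers, and summed to at most 11.0 RPKM per list in any H3K18La library and 44.3 in any H3K27Ac library. Of these other markers Slc6a9 rose for H3K18La (1.82 ± 0.41 SE, adjusted p = 0.00655, limma), and Slc6a9, Trpm1, Grm6, Glul, Rlbp1, Gnat2 and Rdh5 rose for H3K27Ac. The part of cell composition in the results below was not tested, and in this bulk material more cells with a mark and more mark per cell cannot be told apart.

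The main comparison asked whether the marks at these genes differed between explants kept in high and in low glucose. Of the 63 member peaks, 58 had a mean RPKM of at least 1 and were tested with limma on log2(RPKM + 0.5), with adjustment over all 72467 peaks tested. For H3K18La, 30 of the 58 rose at 25 mM and 0 fell (adjusted p under 0.05), against 33.3% of all peaks tested that rose. For H3K27Ac, 34 of the 58 rose and 0 fell, against 33.5% of all peaks. The median change of the 58 was 1.33 (log2) for H3K18La beside 1.04 over all peaks, and 1.23 for H3K27Ac beside 0.83. All 25 mM libraries lay above all 5 mM libraries at 36 of the 58 peaks for H3K18La (50.3% of all peaks) and at 55 of the 58 for H3K27Ac (68.6% of all peaks). The 5 member peaks under the minimum all belonged to Pclo and had no value above 2.52 RPKM in any library. Both marks rose at 23 peaks, which were 76.7% of those called for H3K18La and 67.6% of those called for H3K27Ac. Of all 72467 peaks tested, 17.2% rose for both marks, which were 51.7% of all peaks that rose for H3K18La and 51.5% of those that rose for H3K27Ac. The assays are described as biologically replicated, without saying whether libraries came from separate animals or cultures, so p-values measure the spread between these libraries.

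**Figure D1:**
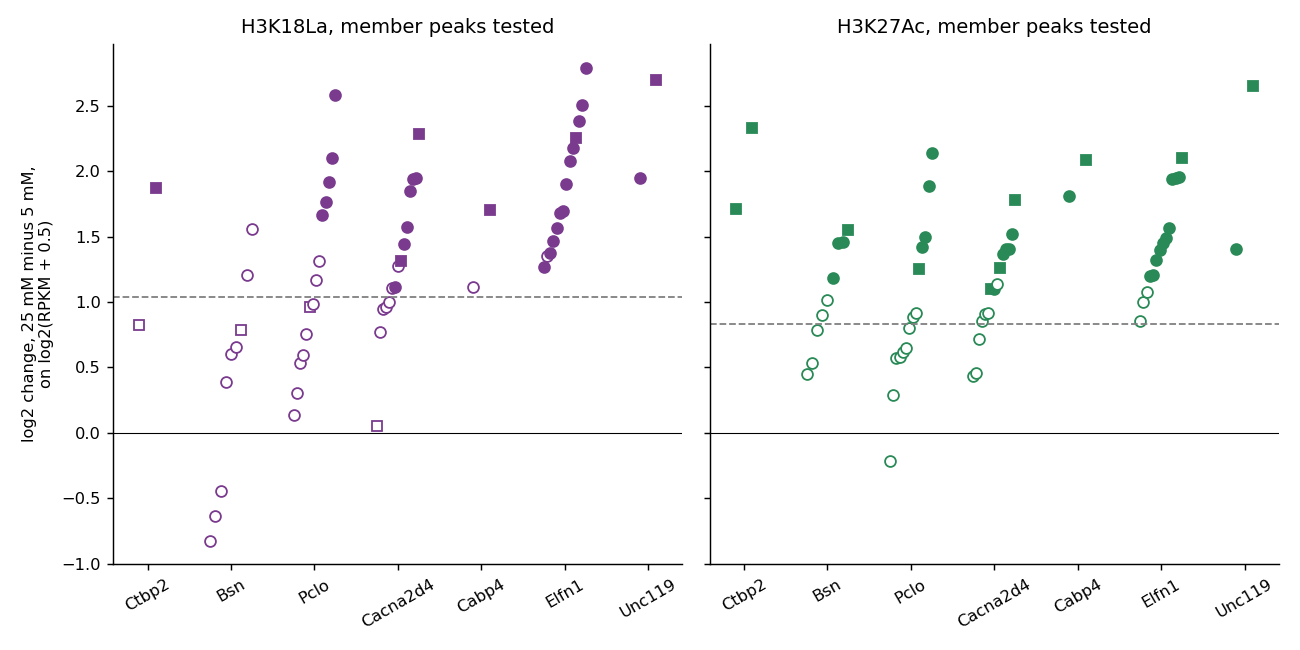
Change of each of the 58 tested member peaks between 25 mM and 5 mM glucose (log2 scale of RPKM + 0.5), by gene and mark. Squares are promoter peaks, circles other peaks, filled symbols passed an adjusted p of 0.05 in limma, and the dashed line is the median of all 72467 peaks (1.04 and 0.83). Nearly all Elfn1 peaks were filled in the H3K18La panel and no Bsn peak was.

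At promoters the number of members that passed depended on the scaling. H3K27Ac rose at 10 of the 10 promoter peaks, beside 58.0% of all promoter peaks tested, whereas H3K18La rose at 6 of the 10, beside 26.8% of all promoter peaks. The 4 that did not pass for H3K18La were those of Bsn and Pclo, the upstream Ctbp2 peak and a second, internal start of Cacna2d4. After centring each library on its median peak, 3 promoter peaks passed for H3K18La (Cacna2d4, Elfn1 and Unc119) and 2 for H3K27Ac (RIBEYE and Unc119), beside 1.13% and 3.01% of all promoter peaks. Leaving out either H3K27Ac library at 25 mM left 0 for that mark, beside 0.0124% of all peaks higher without replicate 1 and 1.20% without replicate 2. Outside promoters, 24 of the 48 tested member peaks rose for each mark, beside 35.0% of all non-promoter peaks for H3K18La and 27.2% for H3K27Ac. The 53 non-promoter member peaks were stronger, with a median RPKM of 4.19 against 1.37 over all 91109 such peaks. Changes depended on level: the H3K18La median over all peaks was 0.76 without a minimum and 1.30 with the minimum doubled. Shares at a matched level were not tested.

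**Figure D2:**
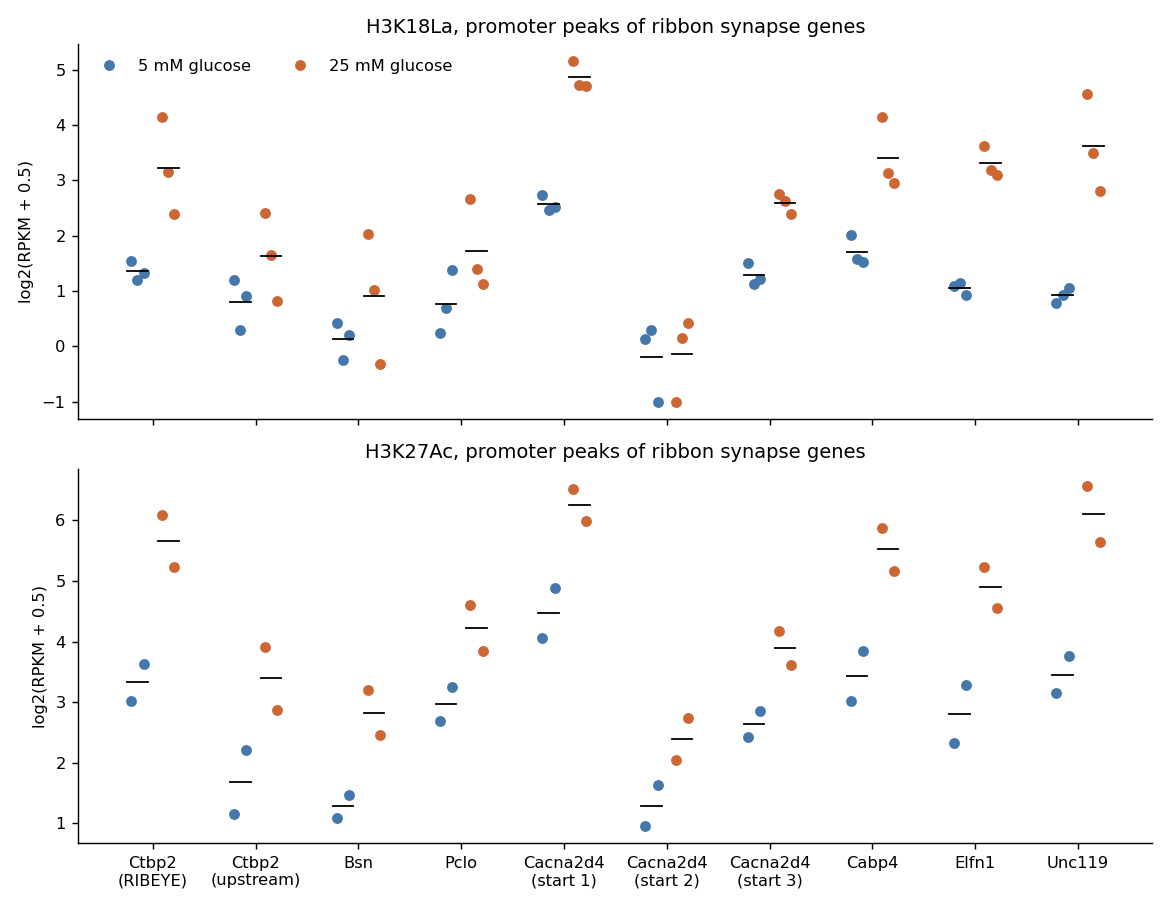
Values of the 10 promoter peaks in each library, as log2(RPKM + 0.5), for H3K18La (top, 3 libraries per glucose level) and H3K27Ac (bottom, 2 libraries per glucose level). Black lines are means; Cacna2d4 starts are numbered along the gene. The glucose groups were fully separated at all 10 promoters for H3K27Ac and overlapped for Bsn, Pclo, upstream Ctbp2 and the second Cacna2d4 start for H3K18La.

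Among the structural genes of the ribbon, the RIBEYE promoter rose in both marks. Its H3K18La RPKM was 2.40, 1.80 and 2.01 in the libraries at 5 mM and 17.2, 8.34 and 4.73 at 25 mM. H3K27Ac there was 7.66 and 11.9 at 5 mM and 67.4 and 37.0 at 25 mM. Every library at 25 mM exceeded every library at 5 mM, and replicate 1 at 25 mM was the highest in both marks. The H3K18La change was 1.87 ± 0.42 (SE, adjusted p = 0.00629), and the H3K27Ac change was 2.33 ± 0.55 (SE, adjusted p = 0.000913) (limma).

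The upstream Ctbp2 peak was weaker, and its change passed for H3K27Ac but not for H3K18La. H3K18La RPKM was 1.78, 0.725 and 1.38 at 5 mM and 4.78, 2.62 and 1.27 at 25 mM, groups that overlapped, with a change of 0.82 ± 0.50 (SE, adjusted p = 0.219). H3K27Ac was 1.74 and 4.14 at 5 mM and 14.6 and 6.84 at 25 mM, a change of 1.71 ± 0.45 (SE, adjusted p = 0.00273). The ratio of the RIBEYE to the upstream peak within a library does not depend on library scaling. For H3K18La it was 1.35, 2.49 and 1.45 at 5 mM and 3.61, 3.18 and 3.73 at 25 mM, and the groups did not overlap, although only 3 to 6 reads lay on the upstream peak in the 5 mM libraries. For H3K27Ac it was 4.40 and 2.87 at 5 mM and 4.60 and 5.41 at 25 mM, also without overlap. The ratio was chosen after the values were seen and was not tested. It is not free of background reads, and the share of reads in peaks differed between glucose levels. No share of other genes with 2 promoter peaks is given, so the shift is not read as particular to the RIBEYE start.

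The scaffold genes Bsn and Pclo did not pass for H3K18La at their starts. Bsn, whose promoter peak (chr9:108189469-108190602) covered the start of the 3942-codon transcript, had an H3K18La RPKM of 0.836, 0.340 and 0.649 at 5 mM and 3.59, 1.52 and 0.297 at 25 mM. One 25 mM library lay below all 5 mM libraries, and the change was 0.78 ± 0.64 (SE, adjusted p = 0.354). H3K27Ac at the same peak was 1.63 and 2.27 at 5 mM and 8.70 and 4.99 at 25 mM, without overlap, and rose by 1.55 ± 0.44 (SE, adjusted p = 0.00493). The strongest other Bsn peak was annotated to the 3' UTR (chr9:108095093-108096185). It had H3K18La values of 0.434, 1.41 and 0 at 5 mM and 3.26, 2.48 and 1.54 at 25 mM, which did not overlap, although the change of 1.56 ± 0.59 (SE, adjusted p = 0.0612) did not pass. H3K27Ac there went from 3.17 and 5.30 to 12.1 and 12.2, a rise of 1.45 ± 0.46 (SE, adjusted p = 0.0111). Of the 9 Bsn peaks, 0 passed for H3K18La, where changes ran from -0.82 to 1.56, and 4 rose for H3K27Ac, beside 33.3% and 33.5% of all peaks.

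Pclo carried its H3K18La far from its start. Its promoter peak (chr5:14514551-14515946) held an H3K18La RPKM of 0.679, 1.11 and 2.11 at 5 mM and 5.83, 2.11 and 1.69 at 25 mM, overlapping groups with a change of 0.96 ± 0.52 (SE, adjusted p = 0.169). H3K27Ac at this promoter was 5.96 and 9.00 at 5 mM and 23.8 and 13.9 at 25 mM, and rose by 1.26 ± 0.49 (SE, adjusted p = 0.0362). The strongest Pclo peak lay 211 kb into the gene, in an intron (chr5:14725237-14725617). H3K18La there was 7.47, 5.57 and 1.93 at 5 mM and 32.0, 26.5 and 28.3 at 25 mM, and H3K27Ac 4.86 and 9.72 at 5 mM and 44.9 and 23.0 at 25 mM. The groups were well apart for both marks, with changes of 2.58 ± 0.37 (SE, adjusted p = 0.000806) for H3K18La and 2.14 ± 0.51 (SE, adjusted p = 0.00112) for H3K27Ac. A peak annotated as the promoter of the noncoding gene Gm26954 (chr5:14722929-14724112) lay 1124 bp away and rose by 2.87 ± 0.32 (SE) for H3K18La and 2.61 ± 0.53 (SE) for H3K27Ac.

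Another Pclo intron peak (chr5:14743273-14743545), chosen after its values were seen, rose in both marks, with H3K18La of 3.47, 3.53 and 5.39 at 5 mM and 16.8, 11.7 and 23.5 at 25 mM, a change of 1.91 ± 0.30 (SE, adjusted p = 0.00118). Of the 14 tested Pclo peaks, 5 rose for each mark, close to the 33.3% and 33.5% of all peaks. All 5 Pclo peaks that rose for H3K18La lay in the part of the gene nearer its 3' end, where 11 of the 14 tested Pclo peaks lay. The 11 non-promoter peaks of that part, of 19 Pclo peaks in all, held 65.2% to 87.9% of the reads assigned to Pclo in the 6 H3K18La libraries and 44.0% to 62.3% in the 4 H3K27Ac libraries, ranges that did not overlap. The promoter peak held 4.65% to 17.4% of the H3K18La reads and 28.02% to 36.9% of the H3K27Ac reads. These shares were chosen after the values were seen, compare different libraries for the 2 marks and were not tested. Corresponding ranges also did not overlap for Elfn1, where H3K18La was again the higher, but overlapped for Bsn and Cacna2d4. How many of all genes differ between marks in this way is not given, so nothing particular to Pclo is read from it.

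**Figure D3:**
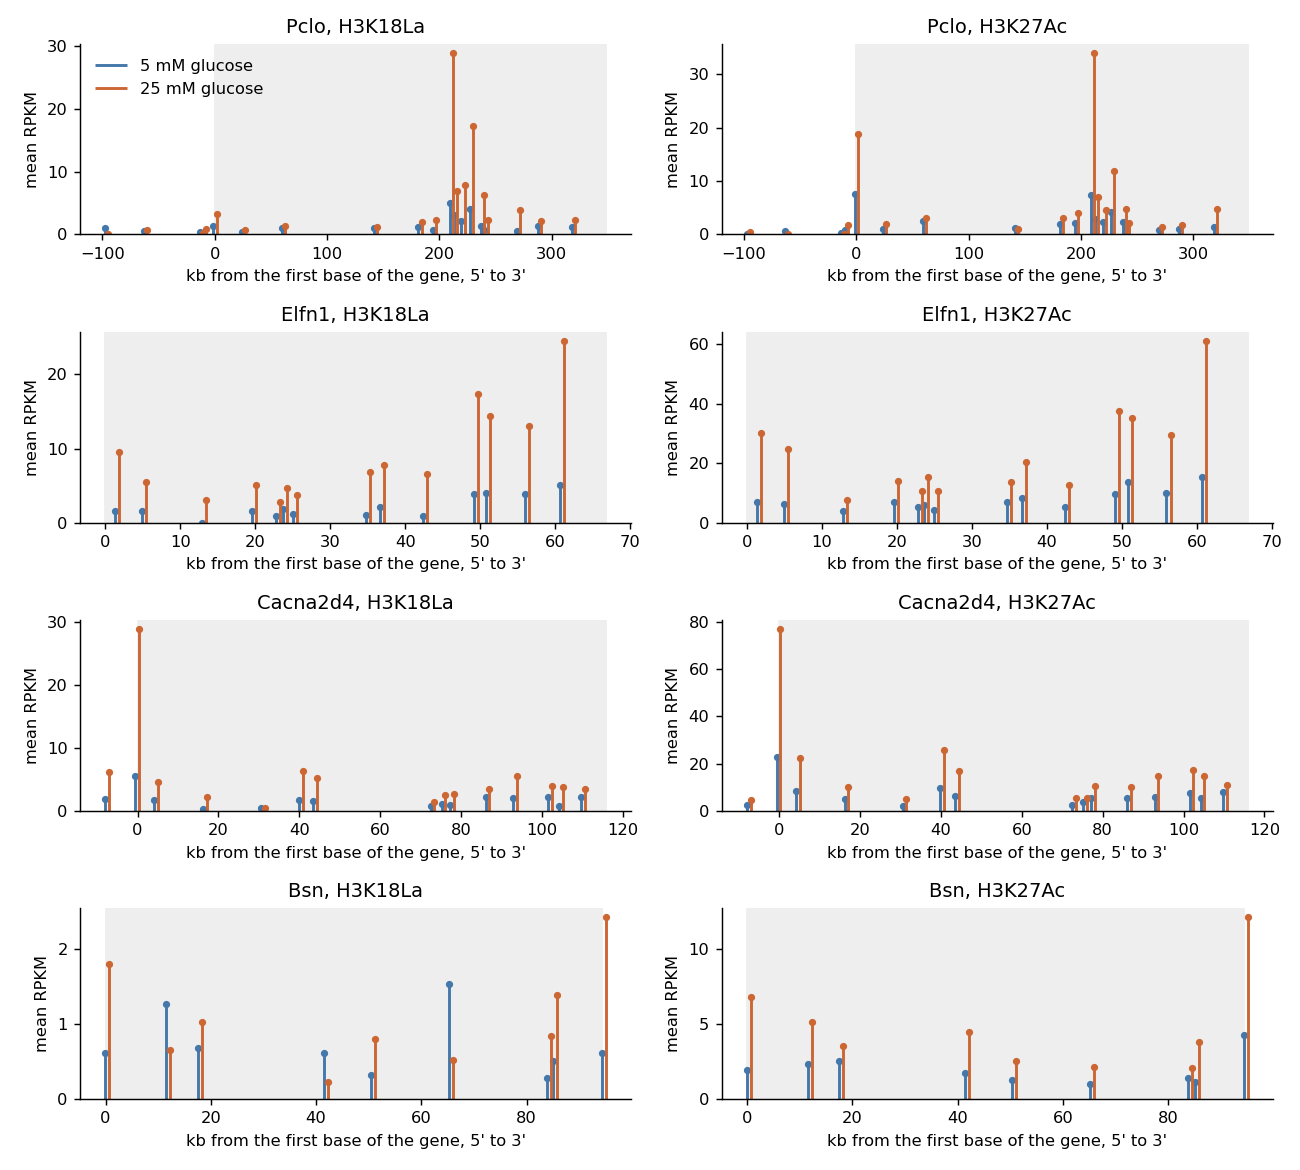
Mean RPKM at 5 mM and 25 mM glucose of each peak against its distance in kb from the first base of the gene (grey span), for Pclo, Elfn1, Cacna2d4 and Bsn, with a separate vertical scale in each panel. H3K18La of Pclo stood highest 211 kb into the gene and was low at the start, while Cacna2d4 had its highest values at the start for both marks.

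The genes that serve the calcium channel had strong promoters in both marks. The main Cacna2d4 promoter peak (chr6:119235450-119237289) had the highest H3K18La of all member promoters, with RPKM of 6.18, 5.03 and 5.20 at 5 mM and 35.1, 25.8 and 25.7 at 25 mM. H3K27Ac there was 16.2 and 29.1 at 5 mM and 90.9 and 63.0 at 25 mM. No groups overlapped, and the changes were 2.29 ± 0.23 (SE, adjusted p = 0.000524) for H3K18La and 1.78 ± 0.61 (SE, adjusted p = 0.0186) for H3K27Ac. The peak already stood at percentile 98.8 ± 0.6 (SD, n = 3) of all H3K18La peaks of its library at 5 mM.

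The most 3' Cacna2d4 start (chr6:119328391-119331241), within 1 kb of a start of Lrtm2, rose from 1.94 ± 0.339 to 5.56 ± 0.767 RPKM (SD, n = 3) for H3K18La. The second start (chr6:119267124-119267930) was near the floor for that mark, at 0.435 ± 0.382 and 0.482 ± 0.432, while its H3K27Ac rose by 1.10 ± 0.43 (SE, adjusted p = 0.0383). The strongest Cacna2d4 peak outside promoters (chr6:119275587-119278139, annotated as exonic) had H3K18La values of 3.16, 1.44 and 0.288 at 5 mM and 6.58, 6.26 and 6.21 at 25 mM. The 5 mM libraries were widely spread there and the 25 mM libraries nearly equal, with a change of 1.95 ± 0.50 (SE, adjusted p = 0.0126). H3K27Ac at that peak went from 7.07 and 12.6 to 25.2 and 26.3, a rise of 1.40 ± 0.51 (SE, adjusted p = 0.0262). Of the 15 Cacna2d4 peaks, 8 rose for each mark, beside 33.3% and 33.5% of all peaks.

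Cabp4 rose at its promoter (chr19:4139194-4141065), which lay within 1 kb of the neighbouring gene Gpr152. H3K18La was 3.55, 2.47 and 2.36 at 5 mM and 17.1, 8.28 and 7.20 at 25 mM, and H3K27Ac 7.66 and 13.9 at 5 mM and 58.4 and 35.4 at 25 mM. The groups did not overlap, and the changes were 1.70 ± 0.35 (SE, adjusted p = 0.00445) and 2.08 ± 0.54 (SE, adjusted p = 0.00267). The adjoining exonic peak (chr19:4138525-4139040) had overlapping H3K18La values of 2.76, 1.12 and 4.28 at 5 mM and 9.86, 3.81 and 5.23 at 25 mM, a change of 1.11 ± 0.46 (SE, adjusted p = 0.0802). Its H3K27Ac went from 7.17 and 15.6 to 50.7 and 29.2 and rose by 1.81 ± 0.54 (SE, adjusted p = 0.00713).

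Elfn1, the adhesion gene, rose at most of its peaks before any rescaling. Its wide promoter peak had an H3K18La RPKM of 1.63, 1.69 and 1.40 at 5 mM and 11.8, 8.60 and 8.07 at 25 mM. H3K27Ac was 4.50 and 9.21 at 5 mM and 37.3 and 23.0 at 25 mM. Replicates lay close together for H3K18La and far from the other glucose level, with changes of 2.25 ± 0.31 (SE, adjusted p = 0.000670) for H3K18La and 2.10 ± 0.50 (SE, adjusted p = 0.00121) for H3K27Ac. Of its 14 peaks, 13 rose for H3K18La and 11 for H3K27Ac, beside 33.3% and 33.5% of all peaks, with median changes of 1.80 and 1.42 beside 1.04 and 0.83. After centring, 3 of the 14 passed for H3K18La and 0 for H3K27Ac in limma, beside 1.64% and 1.22% of all peaks. In that setting 24 of all 58 member peaks stood at an unadjusted p under 0.05 for H3K27Ac. The share of all peaks at that unadjusted p is not given, so the count is not read as a trait of the members.

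The strongest Elfn1 peak lay near its 3' end. It (chr5:139967794-139969977) was centred 60.9 kb into the gene, and its H3K18La was 4.56, 4.24 and 6.41 at 5 mM and 29.1, 22.7 and 21.6 at 25 mM, a change of 2.17 ± 0.25 (SE, adjusted p = 0.000524). H3K27Ac at that peak was 11.8 and 19.2 at 5 mM and 73.7 and 48.4 at 25 mM, a change of 1.95 ± 0.58 (SE, adjusted p = 0.00701). The largest fitted H3K18La change of any member peak belonged to a narrow Elfn1 intron peak (chr5:139920899-139921240) with 0 reads in all 3 libraries at 5 mM and RPKM of 4.46, 2.88 and 1.97 at 25 mM. Against a floor of 3 reads over the 5 mM group it was at least 2.88-fold higher, and with this bound in place of its fitted value the median member change stayed at 1.33. Its H3K27Ac values of 2.70 and 5.18 at 5 mM and 9.35 and 5.51 at 25 mM gave a change of 0.85 ± 0.45 (SE, adjusted p = 0.120).

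Unc119 changed most at its promoter. H3K18La RPKM was 1.22, 1.41 and 1.58 at 5 mM and 23.0, 10.8 and 6.53 at 25 mM. H3K27Ac was 8.35 and 13.1 at 5 mM and 94.6 and 49.5 at 25 mM. The lowest 25 mM library lay well above the highest 5 mM library for both marks, and replicate 1 at 25 mM was again the highest. The changes of 2.69 ± 0.41 (SE, adjusted p = 0.00103) for H3K18La and 2.65 ± 0.57 (SE, adjusted p = 0.000309) for H3K27Ac were the largest of any member promoter. A peak behind the gene (chr11:78351803-78352347) went from 1.74, 1.06 and 0 to 4.67, 2.71 and 5.57 for H3K18La, a rise of 1.95 ± 0.57 (SE, adjusted p = 0.0232). H3K27Ac there went from 5.09 and 5.02 to 14.0 and 14.3, a rise of 1.40 ± 0.47 (SE, adjusted p = 0.0158).

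Levels per length could be ordered across the members' strongest promoter peaks. For H3K18La at 25 mM, Cacna2d4 was highest at 28.9 ± 5.42 RPKM (SD, n = 3), and its lowest library exceeded every library of the other members. Unc119 (13.4 ± 8.54), Cabp4 (10.9 ± 5.44), Ctbp2 at the RIBEYE start (10.1 ± 6.44) and Elfn1 (9.50 ± 2.03) followed and overlapped each other. Pclo (3.21 ± 2.28) and Bsn (1.80 ± 1.66) came last and overlapped as well, and the highest Pclo library lay above the lowest of Ctbp2. For H3K27Ac at 25 mM the order was Cacna2d4 (77.0 ± 19.7, n = 2), Unc119, Ctbp2, Cabp4, Elfn1, Pclo and Bsn (6.85 ± 2.63), and each overlapped the next except Pclo and Bsn. At 5 mM Unc119 stood 5th of the 7 for H3K18La, at 1.41 ± 0.180 RPKM.

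A percentile within a library is free of scaling, but not of depth or background. In the H3K18La libraries 9.52% to 39.5% of peaks were tied at 0 reads at 5 mM and 9.56% to 19.9% at 25 mM. The Unc119 promoter stood at percentile 69.1 ± 4.4 (SD, n = 3) of all H3K18La peaks at 5 mM and at 94.5 ± 5.3 (SD, n = 3) at 25 mM. Elfn1 went from 73.8 ± 6.1 to 93.5 ± 1.9, and neither gene's libraries overlapped between glucose levels. The share of all promoter peaks that moved up without overlap is not given, so nothing particular to these genes is read from it. The RIBEYE promoter was at 83.0 ± 3.7 and 91.2 ± 7.7 and Cabp4 at 90.2 ± 5.0 and 93.7 ± 4.0, and both overlapped. Pclo stood at 61.2 ± 20.04 and 66.5 ± 16.9 and Bsn at 36.9 ± 17.4 and 45.9 ± 29.5 (SD, n = 3). For H3K27Ac, Pclo was at 93.9 ± 0.4 and 92.5 ± 2.8 (SD, n = 2), and the RIBEYE and Unc119 promoters were above percentile 96 in every library.

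**Figure D4:**
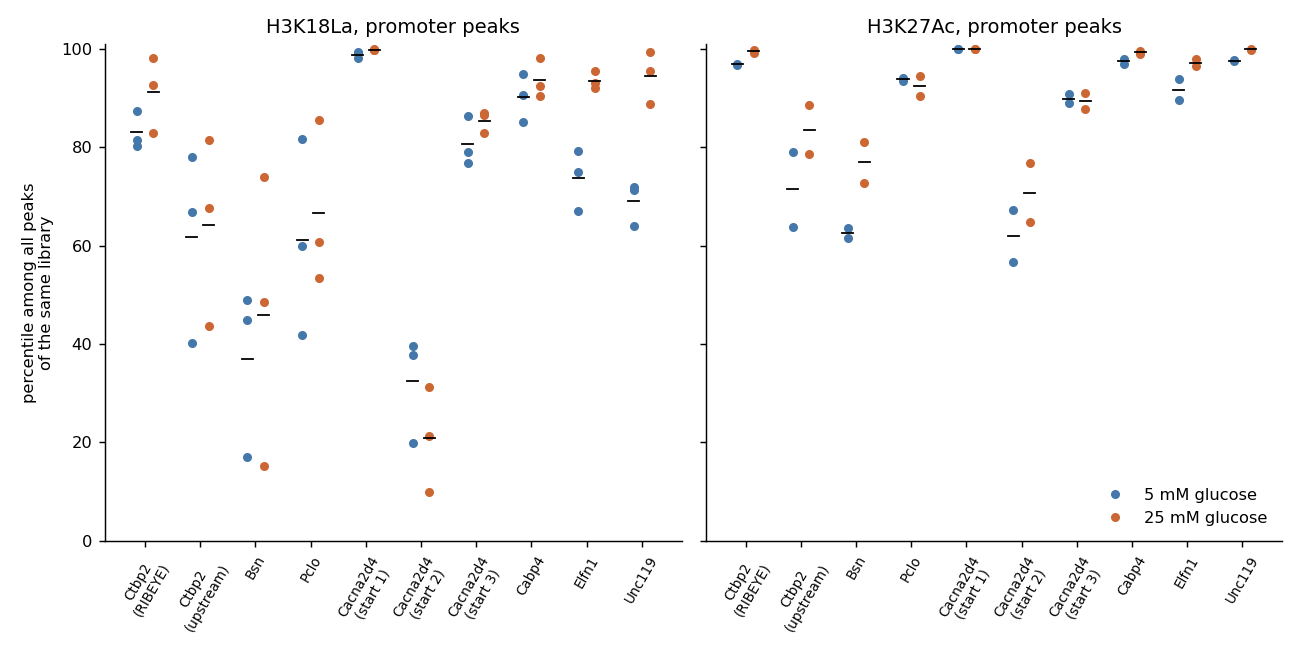
Percentile of each of the 10 promoter peaks among all 108253 peaks of the same library, by glucose level, with means as black lines (3 libraries per level for H3K18La, 2 for H3K27Ac). Unc119, Elfn1 and the first Cacna2d4 start moved up without overlap in H3K18La, while Bsn and Pclo were spread widely. The share of all promoter peaks that moved up in this way is not given.

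Summing all peaks of a gene used every member peak, weak ones included. On summed RPM (reads scaled to library size, not to length), H3K18La rose for 6 of the 7 genes, against 58.9% of 16208 genes tested, and H3K27Ac for 7 of the 7, against 64.0% of genes. All 25 mM libraries lay above all 5 mM libraries for 6 genes in H3K18La (65.8% of all genes) and for 7 in H3K27Ac (86.4% of all genes). Bsn was the exception for H3K18La, with summed RPM of 5.21, 6.17 and 5.89 at 5 mM and 14.2, 9.59 and 6.07 at 25 mM and a change of 0.67 ± 0.31 (SE, adjusted p = 0.0680). Unc119 went from 3.79, 3.86 and 3.68 to 56.0, 26.6 and 18.2, a change of 2.84 ± 0.31 (SE, adjusted p = 3.98e-08). Elfn1 had the smallest error, with 46.9, 45.5 and 48.6 and then 259, 195 and 197, a change of 2.18 ± 0.12 (SE, adjusted p = 4.63e-13). The H3K18La changes of the others were 1.80 ± 0.32 (SE) for Ctbp2, 1.78 ± 0.14 for Cacna2d4, 1.67 ± 0.29 for Cabp4 and 1.44 ± 0.17 for Pclo, beside a median of 1.08 over all genes. For H3K27Ac they ran from 1.22 ± 0.45 for Pclo to 2.60 ± 0.46 for Unc119, beside a median of 1.10.

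The number of members past the test depended on how libraries were scaled. When the median gene was centred in each library, 5 of the 7 genes passed for H3K18La, beside 14.7% of all genes, and Ctbp2, Cabp4, Elfn1 and Unc119 passed for H3K27Ac, beside 8.18%. Cabp4, at 0.76 ± 0.27 (SE, adjusted p = 0.0583), and Bsn did not pass for H3K18La. With the reads inside peaks as each library's denominator, H3K18La passed for Elfn1 (0.74 ± 0.11 SE, adjusted p = 0.00287) and Unc119 (1.48 ± 0.30 SE, adjusted p = 0.0149), and H3K27Ac for the same 4 genes as after centring, with changes from 0.55 ± 0.12 for Elfn1 to 1.34 ± 0.16 for Unc119 (limma), beside 2.31% and 6.25% of all genes. Bsn turned to -0.24 ± 0.30 after centring and -0.69 ± 0.30 for H3K18La when scaled to reads in peaks, neither of which passed. For H3K27Ac all 7 genes stayed above 0 after centring. When scaled to reads in peaks 5 of the 7 did for that mark, with a lowest change of -0.045. Of the single peaks, 6 passed for H3K18La after centring (1.64% of all peaks), namely the promoters of Cacna2d4, Elfn1 and Unc119, the Pclo intron peak 211 kb into the gene and 2 Elfn1 intron peaks, and 2 for H3K27Ac (1.22% of all peaks), the RIBEYE and Unc119 promoters. Under scaling to reads in peaks 0 member peaks passed in limma for either mark (0% of all peaks), with 9 for H3K18La and 11 for H3K27Ac at an unadjusted p under 0.05. Shares of all peaks at an unadjusted p are not given for the other fits, so such counts are not read as traits of the members. With 2 libraries per level, H3K27Ac calls also hung on single libraries, since leaving out either library at 25 mM left 0 of the 58 peaks past the test (11 and 19 at an unadjusted p under 0.05). The same fits left 9 of all 72467 peaks past the test without replicate 1 and 878 without replicate 2, against 24375 with all 4 libraries.

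**Figure D5:**
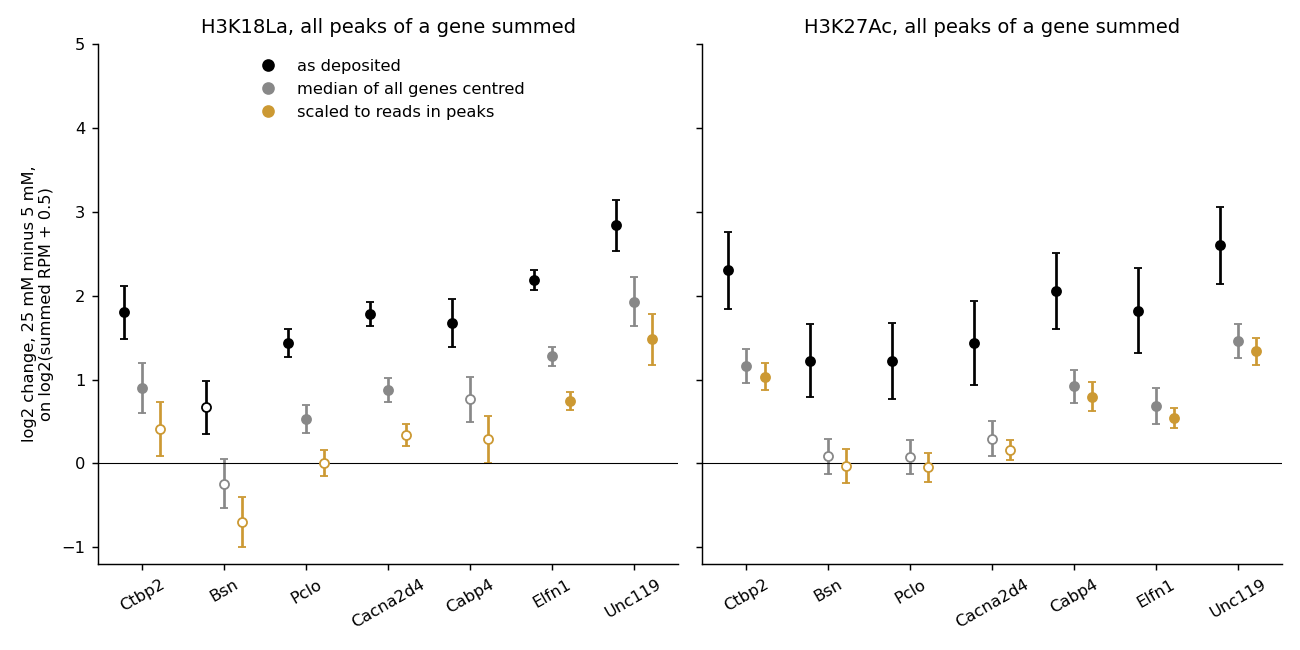
Change of each gene's summed RPM between 25 mM and 5 mM glucose (log2 scale of RPM + 0.5) under 3 scalings, with bars of 1 SE from the limma fit and filled symbols for an adjusted p under 0.05. Unc119 and Elfn1 stayed above 0 and past the test under all 3 scalings in both marks, while Bsn lay below 0 after either rescaling for H3K18La.

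Whether glucose changed the marks differently at a peak was tested as an interaction over all 10 libraries. It passed at 0 of the 58 member peaks, beside 0% of all 72467 peaks, with a smallest adjusted p of 0.903 (limma), and voom on the recovered reads also called 0. At an unadjusted p under 0.05 stood 4 member peaks (3 by voom) and 3650 of all peaks. These 4, named after their values were seen, were 2 Bsn intron peaks (chr9:108147952-108149089 and chr9:108178081-108178896), where the H3K27Ac change exceeded that of H3K18La by 1.82 and 1.84, and 2 Elfn1 intron peaks (chr5:139920899-139921240 and chr5:139949775-139951446), where the H3K27Ac change minus the H3K18La change was -1.94 and -1.18. The value of -1.94 is set by the pseudocount, since H3K18La had 0 reads at that Elfn1 peak in every library at 5 mM.

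The share of a gene's reads in its promoter peaks was higher in all 25 mM than in all 5 mM libraries of both marks for Cacna2d4 and Elfn1, and of H3K27Ac alone for Bsn, Cabp4 and Unc119 among 6 genes with other peaks. Over all 8247 genes with promoter and other peaks this held for 8.22% in H3K18La, 35.5% in H3K27Ac and 4.10% in both, and nothing particular to these genes is read from it. For Cacna2d4 it went from 39.9% ± 2.17 at 5 mM to 49.9% ± 2.23 at 25 mM for H3K18La (SD, n = 3), and 36.9% ± 0.835 (SD, n = 2) and 43.6% ± 5.14 (SD, n = 2) for H3K27Ac. For Elfn1 it was 19.5% ± 2.55 and 25.3% ± 1.38 (SD, n = 3) for H3K18La, and 23.2% ± 0.756 and 29.9% ± 3.64 (SD, n = 2) for H3K27Ac. For H3K27Ac it went from 12.9% and 10.6% to 20.9% and 13.6% for Bsn, from 79.5% and 76.4% to 80.7% and 81.5% for Cabp4, and from 87.5% and 91.7% to 96.6% and 93.6% for Unc119, whose H3K18La shares overlapped. No test of these shares was made. For Pclo the shares overlapped between glucose levels in both marks.

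Other proteins of the same synapse were compared at the strongest promoter peak of each gene, for which 26.4% of 12657 genes rose in H3K18La and 59.8% in H3K27Ac. Of 10 partners at the active zone, 9 had a promoter peak, and H3K18La rose at 4 and H3K27Ac at 6. Cacnb2, the beta subunit of the calcium channel, changed most in both marks, with H3K18La of 5.13 ± 1.06 and 28.1 ± 7.0 RPKM (SD, n = 3) and a change of 2.33 ± 0.25 (SE, adjusted p = 0.000524). The lowest H3K18La change was 0.62 ± 0.52 for the scaffold gene Erc1 (adjusted p = 0.357). For H3K27Ac the lowest was 0.08 ± 0.45 for Rimbp2 (adjusted p = 0.897).

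Genes of synaptic vesicles and fusion rose at 10 of the 11 promoters with a peak for H3K18La and at 11 of 11 for H3K27Ac, with median changes of 1.97 and 1.72. Sv2b, a vesicle protein, changed most for H3K18La at 2.43 ± 0.29 (SE), and the complexin gene Cplx4 most for H3K27Ac at 2.07 ± 0.51. Rab3a, a small GTPase of vesicles, had the lowest change in both marks, 0.90 ± 0.44 for H3K18La (adjusted p = 0.131) and 1.34 ± 0.49 for H3K27Ac (adjusted p = 0.027).

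Of 8 trans-synaptic and postsynaptic partners, H3K18La rose at 4 and H3K27Ac at 8. Dmd, the dystrophin gene, changed most for H3K18La at 2.57 ± 0.48 (SE), and the bipolar channel gene Trpm1 most for H3K27Ac at 2.80 ± 0.43. Grm6, the receptor that Elfn1 binds, had the lowest H3K18La change of -0.24 ± 0.54 (adjusted p = 0.741), while the lowest H3K27Ac change was 1.23 ± 0.46 for Dag1, the dystroglycan gene (adjusted p = 0.0304).

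Paralogs of the 7 genes were compared in the same way, and no test of a difference between the lists was made. Of 9, all had a promoter peak and 8 were tested. H3K18La rose at 3 of the 8 and H3K27Ac at 6, with median changes of 0.76 and 1.28, beside 0.96 and 1.26 over the strongest promoter peaks of all genes. At the strongest promoter peaks of the 7 members the medians were 1.87 and 2.08, with 5 and 7 past the test. Summed over the list, paralogs had an H3K18La RPKM of 20.98 to 30.8 at 25 mM, and members, of which there are fewer, 54.2 to 114. Cacna2d3 changed most for H3K18La at 1.58 ± 0.32 (SE) and reached 7.32 RPKM at 25 mM, above the promoters of Pclo and Bsn, and Cabp5 least at 0.48 ± 0.67. Ctbp1 changed most for H3K27Ac at 1.77 ± 0.45, while its H3K18La change of 0.71 ± 0.51 did not pass (adjusted p = 0.292), and Elfn2 changed least for H3K27Ac at 0.62 ± 0.44.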

How the data were processed

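Per the study's methods and the submitters' processing notes, the authors aligned CUT&Tag reads to GRCm38 with nf-core/cutandrun and called peaks with MACS. They merged consensus peaks, counted reads with csaw and annotated peaks with ChIPseeker 1.34.1. The number of peaks is the one the paper gives for its developmental H3K18La series, so the peaks may not stem from these explants. The deposited values are RPKM per peak and library. A second deposited table holds the authors' own log2 fold changes, p-values and false discovery rates for H3K18La (edgeR 3.40.2) and was not used. Whole reads were recovered from the RPKM steps (100% of values within 0.02 reads of a whole number), and denominators may include a normalization factor.

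Each mark was tested with limma 3.58.1 (R 4.3.3, trended moderation) on log2(RPKM + 0.5), as 25 mM minus 5 mM, over the 72467 peaks whose RPKM averaged 1 or more. A count test could not be the main result for RPKM, so voom on recovered reads was an alternative. Reads of all peaks of a gene were also summed as RPM (mean of at least 2, 16208 of 25400 genes). p-values were adjusted by Benjamini-Hochberg over all peaks or genes tested, at 0.05. A fold change on this scale understates changes of weak peaks. The scripts were tested on simulated data. Counting error alone underlies the read floor. Values were given for each member's promoter peaks, its strongest other peak and the 3 largest rises and falls per mark, and for the highest and lowest change of each list. The members and lists were chosen with earlier results of these data known. Other scalings, pseudocounts, minima, thresholds, a replicate block and leaving out libraries were tried. One listed marker gene is not reported here.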

Additional observations from a re-analysis of the deposited data

How the results depend on the processing

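Centring each library on its median peak shifted the median of all peaks by -0.88 (H3K18La) and -0.69 (H3K27Ac), and scaling to reads in peaks by -1.01 and -1.05. After centring, 6 member peaks passed for H3K18La and 2 for H3K27Ac, with median member changes of 0.45 and 0.54, and 4 genes for H3K27Ac. After scaling to reads in peaks, 0 peaks passed for either mark (9 and 11 at an unadjusted p under 0.05 in limma), with medians of 0.30 and 0.041, and 2 genes passed for H3K18La and 4 for H3K27Ac. H3K18La changes above 0 numbered 55 of 58 member peaks, 43 after centring and 39 after scaling to reads in peaks, and H3K27Ac changes 57, 48 and 33. Before rescaling, 65764 of all 72467 peaks lay above 0 for H3K18La and 64778 for H3K27Ac, so nearly all peaks did so. The upstream Ctbp2 peak turned to -0.056 and -0.30 and the second Cacna2d4 start to -0.82 and -0.51 in H3K18La. Among the strongest promoter and other peaks of each gene and the largest rises, directions turned after centring for the H3K18La Bsn promoter (-0.10), and after scaling to reads in peaks for the Bsn promoter (-0.12), the Pclo promoter (-0.17) and the Cabp4 exon peak (-0.15) in H3K18La and for the Elfn1 intron peak at 139920899 in H3K27Ac (-0.31). The shares of reads in peaks differed between glucose levels, and the cause of these changes was not tested.

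For H3K18La the median member change was 1.79 with a pseudocount of 0.1, 1.11 with 1 and 1.56 with the minimum doubled, and 18 peaks passed at a threshold of 0.01. For H3K27Ac 16 passed at that threshold. Without a minimum, 0 peaks (35 at an unadjusted p under 0.05) and 3 genes passed for H3K27Ac in limma. No share of all peaks at that unadjusted p, or of all genes without a minimum, is given here. Over all peaks, 1239 passed for H3K18La after centring, 0 after scaling and 12036 at 0.01, and for H3K27Ac 965, 0 and 9942, 0 without a minimum and 7813 with the block, beside 24221 and 24375.

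Leaving out single libraries gave 21 to 30 H3K18La peaks, medians of 1.23 to 1.47 and 6 to 7 genes, and 14383 (without replicate 2 at 25 mM) to 23391 of all peaks. For H3K27Ac it gave 0 to 47 peaks, medians of 0.85 to 1.53 and 0 to 7 genes: 19 peaks without replicate 1 at 5 mM, 47 without replicate 2 at 5 mM, and 0 without either library at 25 mM, with 0 and 3 genes. Of all peaks, these 4 fits called 16395, 38534, 9 and 878. A lone remaining library is assumed to vary like the others. Deviations of libraries with one number were nearly unrelated (correlations 0.0132 to 0.0288), so numbers do not pair them. With the replicate block 30 peaks passed for H3K18La and 7 for H3K27Ac, and 6 and 3 genes. Shares of all genes with the block or with a library left out are not given. The gene counts of these fits are therefore not read as traits of the members. Few reads per peak limit H3K18La at 5 mM.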

Other observations

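Inside the Ctbp2 gene, 23 further peaks were annotated to the neighbouring gene Fgfr2 and were therefore not among the 63. All 23 were tested, 13 rose for H3K18La and 16 for H3K27Ac, beside 35.0% and 27.2% of all non-promoter peaks, and 0 fell. Their median changes were 1.48 (0.68 to 2.96) for H3K18La and 1.23 (0.71 to 2.76) for H3K27Ac.

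The peak annotated to Gm26954 inside Pclo had an H3K18La RPKM of 2.12 ± 0.567 at 5 mM and 19.1 ± 7.26 at 25 mM (SD, n = 3), and an H3K27Ac RPKM of 7.60 ± 3.29 and 49.4 ± 22.3 (SD, n = 2). Inside Bsn, a promoter peak of 4930447F24Rik changed by -0.52 ± 0.61 (SE) for H3K18La and 0.60 ± 0.44 (SE) for H3K27Ac, neither of which passed.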
